A study of Mus musculus with 6 samples.

Results

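The genes of thrombomodulin, thrombospondin-1 and the plasminogen activators were followed across the 6 conditions, together with the receptor of protein C, tissue factor, factor X, the urokinase receptor and plasminogen activator inhibitor-2. They are 9 of the 24062 genes counted, namely Thbd, Procr, F3, F10, Plau, Plat, Plaur, Serpinb2 and Thbs1. The set was chosen by measured values of these libraries: Thbd and Thbs1 stood at least 2-fold higher in the irradiated library of all 3 polarization states, and the other 7 genes of coagulation and fibrinolysis were listed with them. Differences between irradiated and non-irradiated libraries are therefore given below as a description without a test.

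RNA was sequenced from RAW264.7 cells, a macrophage line established from a mouse tumour, for which the sample labels also name bone marrow as the tissue. M0 macrophages received no polarizing agent, M1 macrophages were polarized for 24 h with LPS at 100 ng/mL plus IFN-γ at 20 ng/mL, and M2 macrophages with IL-4 at 20 ng/mL for the same 24 h. These doses are those of the sample labels, while the legend of a blot in the study has both cytokine doses lower. RM0, RM1 and RM2 macrophages were the corresponding states exposed to 10 Gy from a caesium gamma source and kept for another 24 h. Whether the non-irradiated cells were also kept for these 24 h is not stated in the sources used here, so radiation and time in culture cannot be told apart. RNA from 5 wells was pooled into 1 library per condition, which leaves no measure of the spread between cultures. Each library held between 17894937 and 18870516 counted reads. A level below is a scaled CPM, the count per 1000000 of the scaled library total, and a fold compares 2 libraries on a log2 scale. Intervals at 95% cover counting error only, and a count of 0 allows up to 3 counts.

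Blood clotting is started by tissue factor, the product of F3, and runs through factor X to thrombin. Thrombomodulin, the product of Thbd, holds thrombin at the cell surface and turns it toward the activation of protein C, which the receptor encoded by Procr presents. Clots are dissolved by plasmin, which is released from plasminogen by urokinase (Plau) or tissue-type plasminogen activator (Plat). Urokinase works bound to its receptor, the product of Plaur, and is blocked by plasminogen activator inhibitor-2, the product of Serpinb2. Thrombospondin-1, the product of Thbs1, is a secreted matrix glycoprotein that binds CD36 and CD47 and activates latent TGF-β. Macrophages are known to make urokinase, its receptor and plasminogen activator inhibitor-2.

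The macrophage label was checked against cell type markers. All 8 macrophage markers had at least 10 counts in every library, and their summed level ran from 17800 scaled CPM in M1 to 33400 in RM0, with Lyz2, the lysozyme of myeloid cells, as the most abundant. Lyz2 made up most of that sum, and it was one of 4 macrophage markers that passed the M1 term of the edgeR model described below. Fcgr1, an Fc receptor gene, and Adgre1, the gene of F4/80, rose by a log2 fold of 2.63 (adjusted p = 6.98e-07) and 1.82 (adjusted p = 8.36e-06), while Csf1r, the receptor gene for colony stimulating factor 1, fell by 1.07 (adjusted p = 0.00011) and Lyz2 by 0.82 (adjusted p = 0.0074). The part of these markers in the results was not tested. All epithelial and hepatocyte markers were at 0 in all 6 libraries. Thbd and Procr are also well known from endothelium. The 6 endothelial markers summed to 6.1 scaled CPM in M0 and 8.34 in RM1, their lowest and highest, with Vwf as the most abundant. Cdh5, which encodes VE-cadherin, had between 0 and 7 counts, and Tek, an angiopoietin receptor, had 0 or 1. Pecam1, which leukocytes also carry, had 11, 23 and 35 counts in M0, M1 and M2 and 25, 40 and 47 in RM0, RM1 and RM2, higher in every irradiated library than in its partner. It rose under the M1 term of the model described below by a log2 fold of 1.13 (edgeR, adjusted p = 0.0246), and its part in the results was not tested. The megakaryocyte and platelet markers, which matter because platelets store thrombospondin-1, summed to between 2.02 and 2.94 scaled CPM. Pf4 among them had 23, 8 and 25 counts in M0, M1 and M2 and 20, 25 and 17 in RM0, RM1 and RM2. Between M1 and RM1, Itga2b and Gp1bb went the other way, from 16 to 10 and from 14 to 7 counts. The part of these markers in the results was not tested. The fibroblast markers summed to 43.6 scaled CPM in M1 and 45.8 in RM1 and to between 6.45 and 10.0 elsewhere. Most of this was decorin, Dcn, with 627 counts in M1, 726 in RM1 and between 113 and 177 in the other libraries, while the collagen gene Col1a2 and Postn were at 0 in every library. Lum, the gene of lumican, had 34 counts in RM1 and between 8 and 16 elsewhere. These were the 2 fibroblast markers with enough counts to be tested, and both rose under the M1 term, Dcn by a log2 fold of 2.73 (edgeR, adjusted p = 1.94e-06) and Lum by 1.68 (adjusted p = 0.0121). Col1a1, another collagen gene, had too few counts for the test and was lowest in M1 and RM1. It had 6, 1 and 5 counts in M0, M1 and M2 and 11, 0 and 7 in RM0, RM1 and RM2. Pdgfra had between 1 and 4 counts. The part of the fibroblast markers in the M1 results below was not tested. In bulk RNA of this kind, fewer cells of a type and less RNA per cell cannot be told apart.

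**Figure D1:**
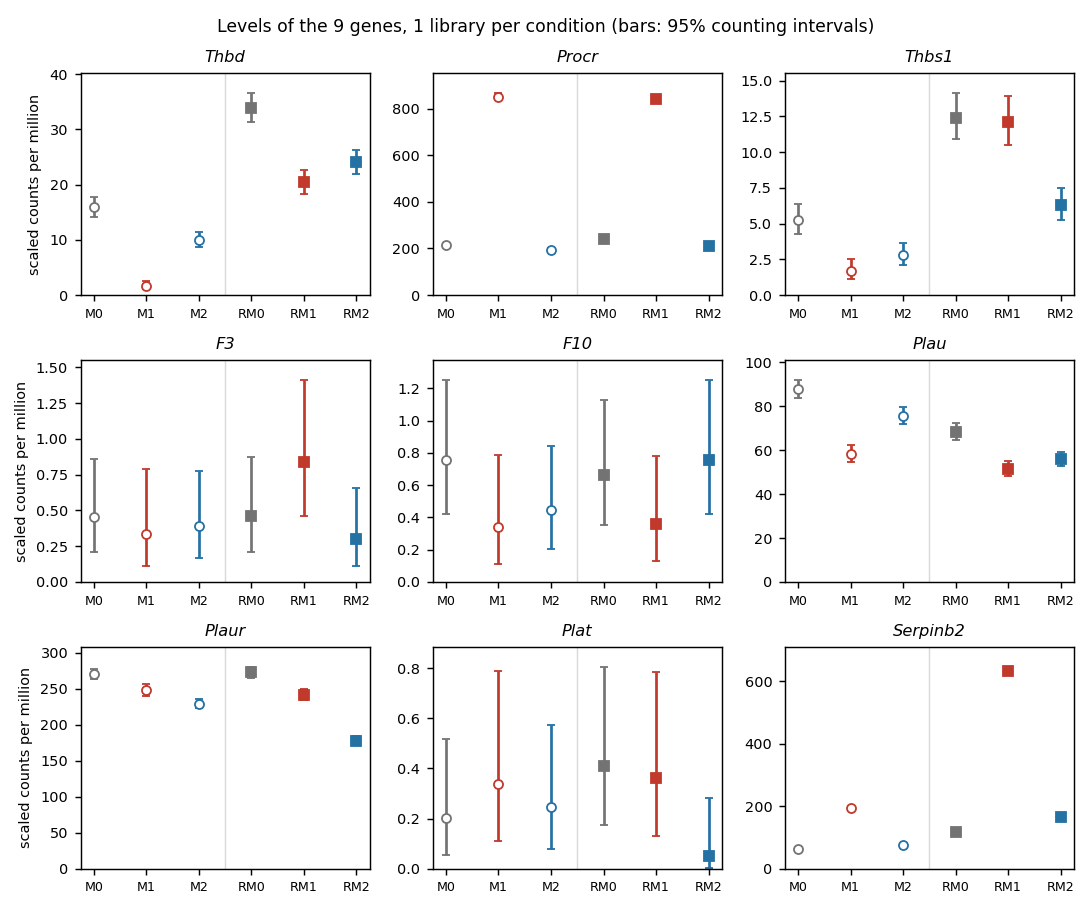
Levels of the 9 genes in the 6 libraries, in scaled CPM on a linear axis from 0 that differs between panels. Open circles are non-irradiated and filled squares are irradiated libraries, and bars are 95% counting intervals. Thbd stood at 1.69 in M1 and at 33.8 in RM0, its lowest and highest, Procr stood apart in M1 and RM1, and F3, F10 and Plat reached at most 0.84.

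Among the anticoagulant genes, Thbd (NM_009378, minus strand, chr2:148404471-148408188 of GRCm38) varied with both factors. Its counts were 315, 25 and 202 in M0, M1 and M2 and 662, 340 and 476 in RM0, RM1 and RM2. M1 was the low library and the 3 irradiated libraries were the 3 highest. Irradiated libraries stood above their partners by a log2 fold of 1.08 in M0 cells (0.893 to 1.29), 3.51 in M1 cells (3.01 to 4.24) and 1.26 in M2 cells (1.03 to 1.51). The log2 fold in M1 cells exceeded that in M0 cells by 2.43, a gap that 1 library per condition cannot test. Seen from polarization, the same gap appears as a log2 fold of -3.15 for M1 against M0 (-3.88 to -2.64), compared with -0.73 for RM1 against RM0 (-0.921 to -0.538). M2 stood below M0 by -0.67 and RM2 below RM0 by -0.49 on the log2 scale. The levels were ordered RM0, RM2, RM1, M0, M2 and M1, and the counting intervals of all 5 differences between neighbours in this order excluded 0.

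Procr followed polarization instead. The gene (NM_011171, plus strand, chr2:155751217-155755478) had 4255, 12587 and 3940 counts in M0, M1 and M2 and 4735, 14049 and 4139 in RM0, RM1 and RM2. M1 and RM1 stood at 851 and 843 scaled CPM, and the other 4 libraries lay between 194 and 242. The log2 fold of M1 against M0 was 1.99 (1.94 to 2.04) and that of RM1 against RM0 was 1.80 (1.75 to 1.85). After irradiation it was 0.17 in M0 cells, -0.01 in M1 cells (-0.0496 to 0.02) and 0.10 in M2 cells. The value in M1 cells turned to 0.13 with scaling by library totals. M1 and RM1 were neighbours whose interval included 0, as were M0 and RM2.

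Upstream sequence from RefSeq (GRCm38.p6) was found for 5 of the 9 genes, F3, F10, Plaur, Procr and Serpinb2. The 3 shown here are those of Procr and Serpinb2, the genes that were high in M1, and of Plaur, which differed little between libraries. All are on the plus strand. Positions are counted back from the RefSeq start, at 155751217 for Procr, 107511423 for Serpinb2 and 24462483 for Plaur. The Serpinb2 and Plaur regions end at the base before that start. The Procr region ends earlier, before the gene annotated in GENCODE, which begins at 155751117, so the bases between the 2 starts are not shown. Capitals mark the AP-1 letters TGANTCA, bound by FOS and JUN proteins, and the TATA box letters TATAAA. The 3 regions are chr2:155750967-155751116, chr1:107511173-107511422 and chr7:24462233-24462482.
Procr: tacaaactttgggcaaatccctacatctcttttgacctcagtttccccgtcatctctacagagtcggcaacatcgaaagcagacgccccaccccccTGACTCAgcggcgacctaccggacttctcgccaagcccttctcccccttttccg
Serpinb2: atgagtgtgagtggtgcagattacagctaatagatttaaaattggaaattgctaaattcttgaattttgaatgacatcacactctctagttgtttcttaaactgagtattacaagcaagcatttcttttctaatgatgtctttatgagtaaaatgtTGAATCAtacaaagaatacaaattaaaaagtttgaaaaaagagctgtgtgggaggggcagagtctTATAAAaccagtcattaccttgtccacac
Plaur: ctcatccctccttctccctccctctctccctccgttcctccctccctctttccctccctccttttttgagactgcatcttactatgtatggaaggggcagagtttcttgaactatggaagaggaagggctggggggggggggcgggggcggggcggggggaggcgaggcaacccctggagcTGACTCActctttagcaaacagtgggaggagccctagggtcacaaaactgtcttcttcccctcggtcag
TGANTCA, which reads alike on both strands, was found in 4 of the 5 windows of 250 bases, in all but that of F10, and in 6.75% of 32851 promoter windows of that length. It began 154 bases before the start of Procr, 94 bases before that of Serpinb2 and 69 bases before that of Plaur. F3 held it at 146 and at 135 bases. TATAAA was found in Serpinb2 alone of the 5, 29 bases before the start, and in 12.4% of all windows. Both strands were also searched for the KLF letters CACCC, found in 3 of the 5 and in 52.0% of all windows, and for an NF-kB motif, found in 4 of the 5 and in 45.8%. The antioxidant response letters TGACNNNGC were found in 1 of the 5, where they overlapped the AP-1 match of Procr, and in 10.2% of all windows. The CRE letters TGACGTCA, the GAS letters TTCNNNGAA and a p53 half-site were found in 0 of the 5 and in 1.55%, 7.02% and 7.13% of all windows. Such matches describe letters and do not show binding.

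The procoagulant genes F3 and F10 were near the limit of detection. Tissue factor, F3 (NM_010171, chr3:121723537-121735052), had 9, 5 and 8 counts in M0, M1 and M2 and 9, 14 and 6 in RM0, RM1 and RM2. RM1 was the highest library, with a log2 fold of 1.09 over M1 whose interval ran from -0.243 to 3.14. F10 (NM_001242368, chr8:13037308-13056676) had 15, 5 and 9 counts in M0, M1 and M2 and 13, 6 and 15 in RM0, RM1 and RM2. Its M1 and RM1 libraries were the lowest, and the intervals of all 7 folds between libraries included 0. For both genes every difference between neighbours in the order of levels had an interval that included 0.

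Of the plasminogen activators, Plau was well measured and Plat was not. Plau (NM_008873, chr14:20836662-20843388) had 1739, 862 and 1537 counts in M0, M1 and M2 and 1341, 858 and 1108 in RM0, RM1 and RM2. M0 was the highest and RM1 the lowest, at 87.7 and 51.5 scaled CPM. Each irradiated library lay below its partner, by a log2 fold of -0.36 in M0 cells (-0.461 to -0.254), -0.18 in M1 cells (-0.318 to -0.042) and -0.44 in M2 cells (-0.553 to -0.328), and none reached 2-fold. M1, RM2 and RM1 closed the order, and their neighbouring intervals included 0. Plat (NM_008872, chr8:22757744-22782848) had between 1 count, in RM2, and 8 counts, in RM0. The intervals between all neighbours in its order included 0, while that of RM2 against RM0, with a log2 fold of -1.7, ran from -8.49 to -0.119.

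Plaur, the urokinase receptor, varied least of the 6 well-measured genes. The gene (NM_011113, chr7:24462500-24475873) had 5374, 3660 and 4654 counts in M0, M1 and M2 and 5344, 4025 and 3530 in RM0, RM1 and RM2. In scaled CPM the libraries ran from 178 in RM2 to 273 in RM0, and M0 at 271 could not be separated from RM0, nor M1 from RM1. The log2 fold after irradiation was 0.01 in M0 cells (-0.0454 to 0.0644), -0.04 in M1 cells (-0.101 to 0.0288) and -0.37 in M2 cells (-0.43 to -0.303). RM2 was thus the low library, 0.62 below RM0 on the log2 scale. Under library totals alone the value in M1 cells was 0.11.

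Serpinb2, the inhibitor, was highest in the library with both M1 polarization and radiation. It (NM_001174170, chr1:107511423-107525600) had 1268, 2877 and 1539 counts in M0, M1 and M2 and 2300, 10551 and 3319 in RM0, RM1 and RM2. RM1 stood far above the other libraries, at 633 scaled CPM against 195 in M1, the next highest, and 63.9 in M0, the lowest. The log2 fold after irradiation was 0.88 in M0 cells (0.777 to 0.977), 1.70 in M1 cells (1.64 to 1.76) and 1.14 in M2 cells (1.05 to 1.23). M1 exceeded M0 by 1.60 (1.51 to 1.70) and RM1 exceeded RM0 by 2.43 (2.37 to 2.5) on the same scale. All 5 differences between neighbours in the order RM1, M1, RM2, RM0, M2 and M0 had intervals that excluded 0. The span listed for this gene covered 58.9% of the gene annotated in GENCODE. Serpinb10, on the same strand, overlaps that annotated gene but begins beyond the listed span, at 107529003.

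Thbs1 (NM_011580, plus strand, chr2:118111922-118127133) had 104, 25 and 57 counts in M0, M1 and M2 and 243, 202 and 125 in RM0, RM1 and RM2. M1 was the lowest library and RM0 and RM1 were the highest, with an interval between these that included 0, as did the interval between M0 and RM2. Irradiated libraries stood above their partners by a log2 fold of 1.23 in M0 cells (0.905 to 1.59), 2.76 in M1 cells (2.24 to 3.50) and 1.13 in M2 cells (0.702 to 1.64). M1 lay below M0 by -1.57 (-2.32 to -0.992) on the log2 scale, while RM1 and RM0 differed by -0.03 (-0.31 to 0.241). M2 lay below M0 by -0.87 and RM2 below RM0 by -0.96. A non-coding gene, Gm29233, overlaps Thbs1 on the opposite strand, and the strand setting of the counting is not given in the sources used here.

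**Figure D2:**
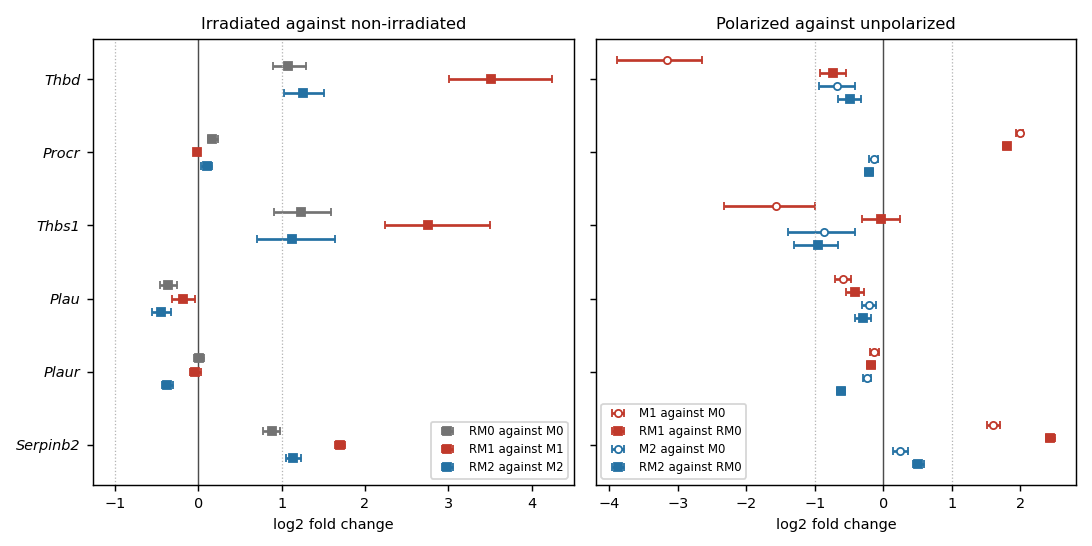
Log2 fold changes of the 6 genes with enough counts in both libraries, for irradiated against non-irradiated libraries on the left and polarized against unpolarized libraries on the right. Bars are 95% counting intervals and dotted lines mark 2-fold. Thbd and Thbs1 lie beyond 2-fold for all 3 irradiated libraries, at 3.51 and 2.76 for RM1 against M1, and Procr and Serpinb2 lie to the right for M1 and RM1.

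A 2-fold difference between 2 libraries was called where either held 10 counts or more. Between RM0 and M0, 2 of the 7 genes with enough counts were called, both higher, where 1.54% of all 11688 genes were called, 0.719% higher and 0.821% lower. Between RM1 and M1, 4 of 7 were called, all higher, where 5.34% of all genes were, 3.08% upward and 2.25% downward. In M2 cells 3 of 7 were called, all higher, where 1.97% were, 1.03% higher and 0.932% lower. Nothing is read from these counts, because the irradiation comparison chose the genes. Of the genes at the 2-fold threshold, the smallest log2 fold of Thbd over the 3 states was 1.08 and that of Thbs1 was 1.13, just inside. Serpinb2 was just outside with 0.88 in M0 cells. For the other 6 genes the smallest of the 3 values ranged from -1.16 for Plat to -0.01 for Procr.

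The choice compared irradiated with non-irradiated libraries and not the polarization states, but it used the same libraries. The low M1 counts of Thbd and Thbs1 entered it, so their lower calls below are not independent of it. M1 against M0 called 4 of 7 genes, Procr and Serpinb2 as higher and Thbd and Thbs1 as lower, where 22.7% of all 11778 genes were called, 9.37% higher and 13.3% lower. RM1 against RM0 called 2 of 8, Procr and Serpinb2, both higher, where 14.0% were called, 6.16% higher and 7.87% lower. M2 against M0 called 0 of 7, where 1.44% were called, 0.995% higher and 0.442% lower. RM2 against RM0 also called 0 of 7, where 2.61% were called, 1.66% higher and 0.953% lower. M1 and M2 were each set against the same M0 library, and RM1 and RM2 against the same RM0 library.

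Polarization was then fitted on all 6 libraries with the quasi-likelihood test of edgeR, in a model with polarization and irradiation as additive terms. The polarization states and radiation levels stand in for replicates there, which leaves 2 residual degrees of freedom and assumes 1 effect of M1 polarization with and without radiation. Of the 9 genes, 7 had enough counts to be tested, and F3 and Plat did not. Under the M1 term 4 of the 7 passed at a Benjamini-Hochberg adjusted p under 0.05, 2 higher and 2 lower, where 47.6% of all 11574 genes passed, 23.3% higher and 24.3% lower. With library totals alone the split over all genes became 1091 higher and 4750 lower, from 2692 and 2817. The share of the 7 that passed in either direction is near the background. Procr rose by a log2 fold of 1.90 (adjusted p = 2.77e-06) and Serpinb2 rose by 2.03 (adjusted p = 1.37e-05), each in both pairs of libraries and under all 6 alternatives tried. Thbd fell by 1.49 on the log2 scale (adjusted p = 0.00892), lower in both pairs, and is not independent of the choice for the reason given above. That call was lost with DESeq2 (adjusted p = 0.0964) and without the irradiation term (adjusted p = 0.291), in a range of adjusted p from 4.87e-11 to 0.291 over 6 alternatives. Plau fell by 0.50 on the log2 scale (adjusted p = 0.00761), lower in both pairs, and had an adjusted p between 0.0024 and 0.0592 over 6 alternatives, the highest without the irradiation term. Values for the genes that did not pass were -0.56 for Thbs1 (adjusted p = 0.173), -1.02 for F10 (adjusted p = 0.144) and -0.15 for Plaur (adjusted p = 0.363), on the log2 scale. With library totals alone Plaur passed in edgeR at -0.49 (adjusted p = 0.0181), in a range of adjusted p up to 0.554 over 6 alternatives.

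Under the M2 term 0 of the 7 passed in edgeR and 0 in DESeq2, while 2 had an unadjusted p under 0.05. At the adjusted threshold in edgeR the background was 0.19% of all 11574 genes, 0.156% higher and 0.0346% lower. An unadjusted p under 0.05 was reached by 1173 of all genes, and 41 passed in DESeq2. The 2 of the 7 with such an unadjusted p were Thbs1, with a log2 fold of -0.96, and Plaur, with -0.42. Their adjusted p in edgeR was 0.447 and 0.387. When the M1 and RM1 libraries were left out, 11.5% of all genes passed the M2 term, and 4 of the 7 did, Thbd at -0.56 (adjusted p = 0.000261), Thbs1 at -0.94 (adjusted p = 1.32e-05), Plaur at -0.42 (adjusted p = 0.000707) and Serpinb2 at 0.39 (adjusted p = 0.00285). That fit has fewer residual degrees of freedom than the 2 of the full model. The M0 and M2 counts of Thbd and Thbs1 also entered the choice of the genes, so their M2 values are not independent of it. Over 6 alternatives the adjusted p ran up to 0.991 for Thbd, 0.787 for Thbs1, 0.766 for Plaur and 0.93 for Serpinb2.

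Levels were compared between genes per kilobase of the longest annotated transcript. In the mean of the 6 libraries Procr stood at 265 scaled CPM per kilobase, Plaur at 119, Serpinb2 at 105 and Plau at 28.3. Thbd followed at 4.73 and Thbs1 at 1.16, and F3, F10 and Plat lay at 0.248, 0.221 and 0.0662. The urokinase receptor and its ligand, the protein C receptor and the inhibitor were the abundant transcripts, and tissue-type activator was the least abundant of the 9. The order of the first 4 differed between libraries. In M0 it was Plaur, Procr, Plau and Serpinb2, and in RM1 it was Procr, Serpinb2, Plaur and Plau. With the mean transcript length in place of the longest, Plau and Serpinb2 changed places in M0, Thbd and Thbs1 in M1, and Procr and Plaur in M2 and RM0, and the order of all 9 was unchanged in RM1 and RM2. The ratio of Plau to Serpinb2 per kilobase was 1.17 in M0, 0.255 in M1 and 0.851 in M2. The irradiated libraries RM0, RM1 and RM2 gave 0.497, 0.0693 and 0.285, so the inhibitor's transcript was the more abundant in every library except M0, and also there with the mean transcript length. The ratio of Procr to Thbd was lowest in RM0, at 16.6, and highest in M1, at 1170.

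The rest of the pathway was taken as 61 further genes, in 9 lists by role. Of these, 34 had enough counts for the additive model. Under the M1 term 19 of the 34 passed, 11 higher and 8 lower, or 55.9% beside the 47.6% of all genes. Among the higher genes was 1 of 4 further tested genes of anticoagulation, a share near the 23.3% of all genes that were higher. Pros1, the gene of protein S, a cofactor of protein C, had 214, 360 and 244 counts in M0, M1 and M2 and 229, 438 and 308 in RM0, RM1 and RM2. M1 and RM1 were the 2 high libraries, and the gene rose by 1.17 (adjusted p = 0.000151) as the only one of 4 tested anticoagulant genes beside Thbd and Procr, of which Thbd fell and Procr rose as given above. Of 4 further tested genes of plasminogen activation, 3 rose, where 23.3% of all genes were higher, while Plau of the same list fell and Plaur did not pass, as given above. The 3 were the plasminogen receptor gene Plgrkt by 1.61, and Anxa2 and S100a10, the subunits of a plasminogen-binding complex, by 0.69 and 0.62 on the log2 scale. S100a10 lost its call with library totals alone (adjusted p = 0.0773, in a range from 4.63e-05 to 0.0773 over 6 alternatives).

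Genes that bind thrombospondin-1 or act with it also rose under the M1 term, 5 of the 8 tested, where 23.3% of all genes were higher. Cd47 rose by a log2 fold of 1.68, Calr by 1.32, Cd36 by 1.29, Sdc4 by 1.14 and Itgav by 0.94. Thbs1 itself did not pass, as given above. Among the transcription factors known to act on these genes, 1 of 9 rose and 6 fell, where 24.3% of all genes were lower. Sp1 rose by 0.73, while Egr1 fell by 2.09, Fosl1 by 1.57, Klf2, an activator of Thbd in endothelium, by 1.09, Fos by 0.91, Jun by 0.76 and Rela by 0.56 on the log2 scale. Of the 4 tested procoagulant genes F5 fell by 1.21 and F8 fell by 2.46, both at low counts of at most 61 in a library. DESeq2 lost both calls, with an adjusted p of 0.0898 for F5, in a range from 0.00719 to 0.0898 over 5 alternatives, and of 0.0544 for F8, in a range from 0.0081 to 0.0544. The call of F5 was also lost without the irradiation term (adjusted p = 0.0734). Plasminogen itself (Plg), protein C (Proc), the thrombin receptor genes F2r and F2rl3, and F2rl1, a protease-activated receptor gene of the same family, had 0 counts in all 6 libraries, each library allowing up to 3 counts.

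**Figure D3:**
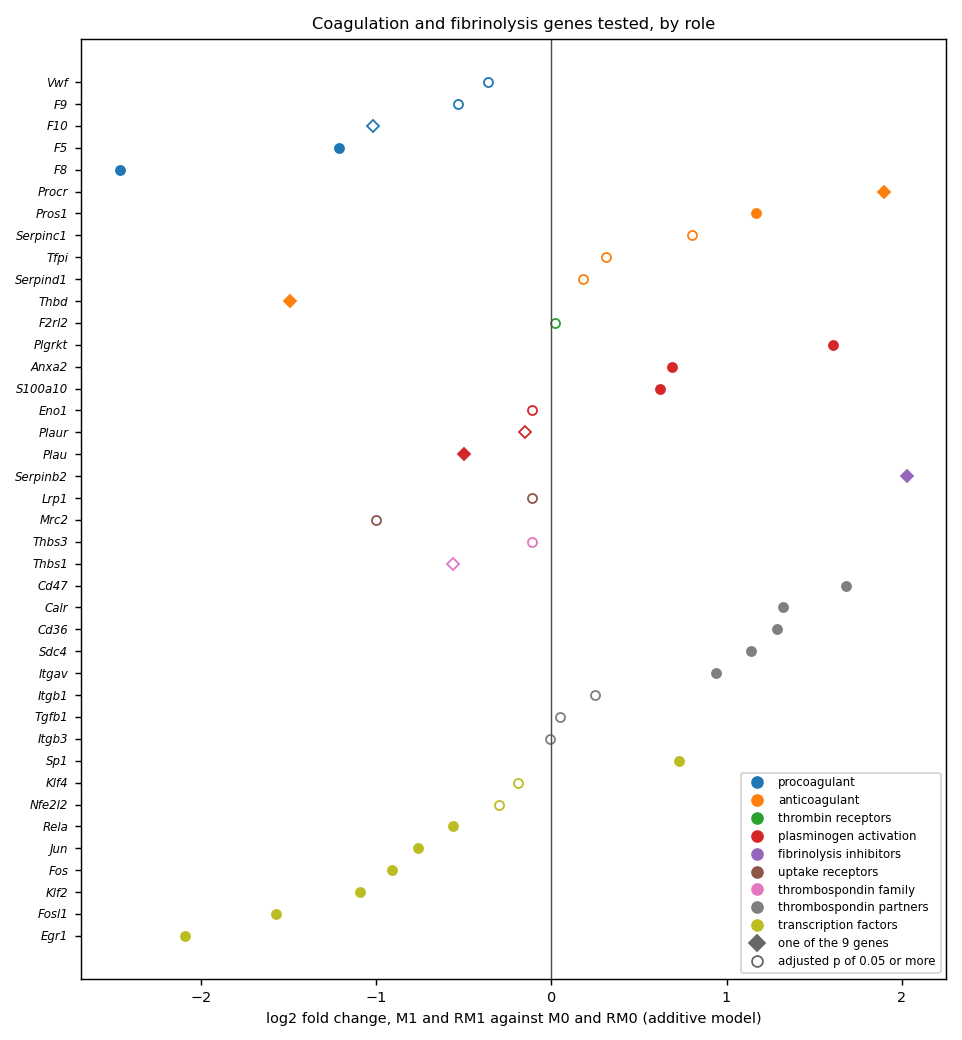
Log2 fold changes of M1 and RM1 against M0 and RM0 in the additive model, for tested genes of coagulation, fibrinolysis and thrombospondin binding. Colours mark the role, diamonds mark genes of the set of 9, and filled symbols have an adjusted p under 0.05. Serpinb2 at 2.03 lies farthest to the right and F8 at -2.46 farthest to the left.

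Under the irradiation term 0 of the 34 other pathway genes passed in edgeR, 7 had an unadjusted p under 0.05 and 4 passed in DESeq2. Among all 11574 genes 0.475% passed in edgeR, 0.346% higher and 0.13% lower. An unadjusted p under 0.05 was reached by 1707 of all genes, and 115 passed in DESeq2. The nearest of the 34 was Lrp1, a receptor that takes up thrombospondin-1 and complexes of plasminogen activators with their inhibitors. It had 20855, 14299 and 17405 counts in M0, M1 and M2 and 31224, 24932 and 24692 in RM0, RM1 and RM2. All 3 irradiated libraries were above all 3 others, with log2 folds of 0.60 in M0 cells, 0.63 in M1 cells and 0.54 in M2 cells and a fitted value of 0.59 (adjusted p = 0.0582). DESeq2 gave Lrp1 an adjusted p of 8.55e-05, and over 8 alternatives it ran from 8.65e-08 to 1.0. Itgav, an integrin subunit, had a fitted log2 fold of 0.59 (adjusted p = 0.0768), Cd36 had 0.51 (adjusted p = 0.138) and Fos had 0.48 (adjusted p = 0.0617), and these 3 passed in DESeq2 as well.

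In 2-library comparisons, 0 of 33 other pathway genes with enough counts were called between RM0 and M0, where 1.54% of all genes were. Between RM1 and M1, 2 of 33 were called, where 5.34% of all genes were. Between RM2 and M2, 0 of 35 were called, where 1.97% were. The 2 called between RM1 and M1 were Itgb3, the partner of the integrin subunit of Itgav, and F2rl2, a thrombin receptor gene. Itgb3 had 4 counts in M1 and 16 in RM1, with a log2 interval from 0.194 to 3.87. F2rl2 had 7 and 18, with an interval from -0.138 to 2.69 that included 0. In the same order of comparisons, median log2 folds of the other pathway genes were 0.01, 0.10 and 0.08, beside -0.00, -0.01 and -0.00 for all genes. M1 against M0 called 7 of 34 as higher and 7 as lower, and RM1 against RM0 called 7 as higher and 5 as lower. Of all genes 9.37% were higher and 13.3% lower in the first of these, and 6.16% and 7.87% in the second. M2 against M0 called 0 of 34, where 1.44% of all genes were called. RM2 against RM0 called 2 of 35, Cd36 and Itgav, both higher, where 2.61% were called, 1.66% higher. The M2 term passed 0 of the 34 in edgeR, with 6 at an unadjusted p under 0.05, and 2 in DESeq2, Cd36 and Itgav. Of all 11574 genes 22 passed it in edgeR, 1173 had an unadjusted p under 0.05 and 41 passed in DESeq2.

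Finally, each of the 6 genes averaging 50 counts or more was matched to the 3 genes, of 10190, whose centred log2 levels over the 6 libraries lay nearest to its own. The measure was the Euclidean distance, in log2 units, with 0 for the same pattern. Levels were centred but not scaled to a common spread. A gene that varies little therefore lies near other such genes, and distances are not comparable between the 6 genes. Plaur had the closest match, Rab3a at 0.0844, which had 103 counts in M0 and 72 in RM2. Tubb4a and Tsen34 followed. The pattern of Plau was nearest to those of Tmtc4 at 0.152, Rnaseh2a and Polr2h. Procr was nearest to Arc at 0.20, Dusp2 at 0.235 and Il15 at 0.264. Arc had 989 counts in M1 and 1064 in RM1 and between 306 and 399 elsewhere, and Procr was high in the same 2 libraries.

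Serpinb2 was nearest to Trf at 0.699, Gad1 at 0.757 and Ptgs2 at 0.793. Ptgs2, the inducible cyclooxygenase, had 47271, 74139 and 53419 counts in M0, M1 and M2 and 71098, 198747 and 102108 in RM0, RM1 and RM2, with RM1 as the highest library for both genes. Thbs1 was nearest to Abca1 at 1.07, Eml1 at 1.33 and Trem1 at 1.38. Abca1, a cholesterol exporter, had 883 counts in M1, its lowest library, and 4703 in RM2, its highest. Thbd had no close neighbour. Its nearest were Fancf at 1.39, Fam43a at 1.61 and Il11 at 1.62, and Fancf had 9 counts in M1 and 93 in RM0, the lowest and highest libraries of Thbd as well.

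**Figure D4:**
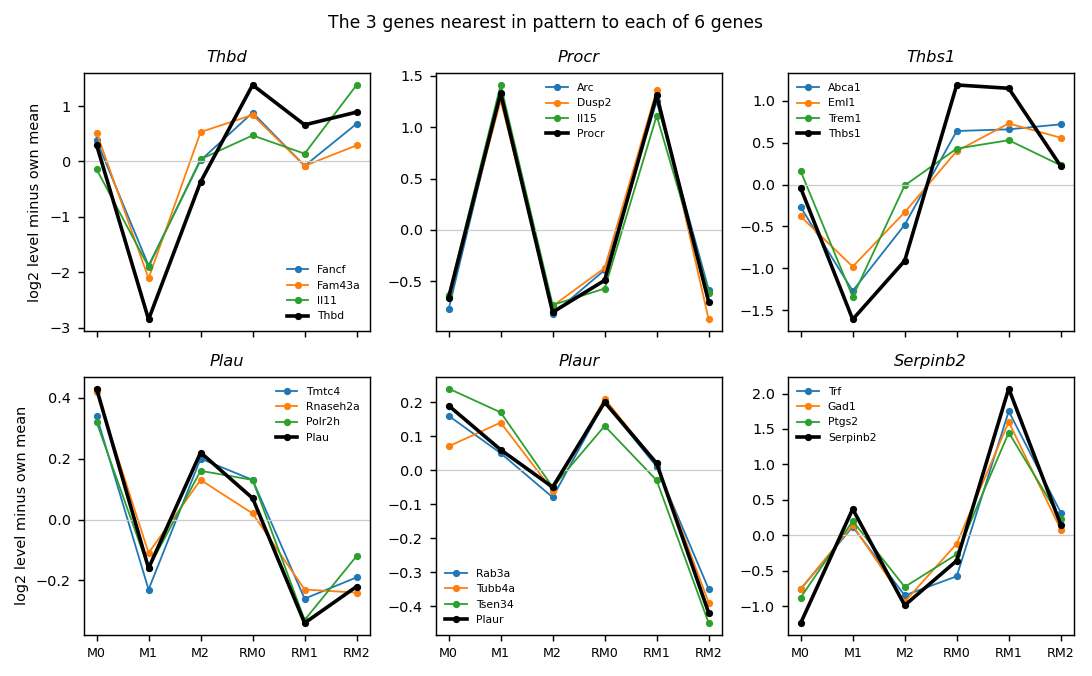
Centred log2 levels over the 6 libraries for 6 of the genes (thick black lines) and the 3 genes nearest to each (coloured lines), with an axis that differs between panels. The lines lie close together for Procr, where the farthest of the 3 is at a distance of 0.264, and apart for Thbd, where the nearest is at 1.39.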

How the data were processed

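RNA was sequenced in 6 libraries, 1 per condition, of RNA pooled from 5 wells. The authors deposited raw read counts per RefSeq gene, made with HTSeq, without normalization. The submitters' processing notes name Trimmomatic 0.36, HISAT2 2.2.1, HTSeq 0.11.3 and the build mm10, and the paper names edgeR. Strand setting and annotation version are not given in the sources used here. Of 24062 genes, 8137 had 0 counts in all libraries.

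Samples were grouped by their labels. Libraries were scaled by TMM in edgeR 4.0.16 (R 4.3.3), with factors between 0.8004 in M1 and 1.134 in M2, and log2 folds used a prior count of 2. Fold intervals were exact Clopper-Pearson and level intervals exact Poisson, at 95%. Genes that reached 10 counts in 3 libraries or more entered edgeR's quasi-likelihood test with Benjamini-Hochberg adjustment at 0.05, which was tested on simulated data first. DESeq2 1.42.0, a 4-fold threshold, other filters on counts, scaling by totals, a prior count of 0.25, removal of a GC trend, libraries left out in pairs and models of 1 term were tried as alternatives. The genes, their lists by role and the cell type markers were chosen with earlier results of these data known. Named were the 9 genes, genes of those lists, and for each of the 9 with a mean of at least 50 counts the 3 nearest in pattern among genes of that mean. Gene lengths came from GENCODE M21 and upstream sequences from RefSeq (GRCm38.p6). Adgre1 was listed as Emr1. Some genes of these lists are counted in them but are not reported here. Python 3.11.15 with pandas 2.3.3, numpy 2.4.6, scipy 1.17.1 and matplotlib 3.10.9 did the rest.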

Additional observations from a re-analysis of the deposited data

Results flagged for a closer look

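Among the 69 genes looked at, 6 moved in opposite directions in 2 states or radiation levels, with counting intervals that excluded 0 on both sides, and none of them belongs to the 9 genes. With 1 library per condition these differences were not tested, and no share over all genes is given beside the 6. Egr1, an immediate early transcription factor, had a log2 fold after irradiation of -0.45 in M0 cells, 0.59 in M1 cells and -0.57 in M2 cells. Nfe2l2, the gene of the antioxidant regulator NRF2, had -0.13 in M0 cells, 0.43 in M1 cells and 0.13 in M2 cells. Cd47, a thrombospondin receptor gene, had 0.09 in M0 cells, -0.27 in M1 cells and 0.20 in M2 cells. Tgfb1 had -0.33 in M1 cells and 0.06 in M2 cells after irradiation, and 0.20 for M1 against M0 beside -0.12 for RM1 against RM0. Itgb1 had -0.11 in M0 cells and 0.14 in M1 cells, and S100a10 had -0.07 in M0 cells, 0.08 in M1 cells and 0.08 in M2 cells. Scaling by library totals alone shifted all genes by -0.44 between M1 and M0 and by -0.05 between RM2 and M2. The 0.20 of Tgfb1 for M1 against M0 is smaller than the first shift, so its sign depends on the scaling. Its 0.06 in M2 cells is close in size to the second.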

How the results depend on the processing

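With 1 pooled library per condition, no value has a replicate check, and for genes with at most 15 counts (F3, F10, Plat) neighbouring libraries could not be separated. The labels give each condition 1 library and no replicate numbers, so libraries could not be paired by replicate. The additive model compared irradiated with non-irradiated libraries within each polarization state. No called value changed sign. Below the threshold, Plaur between RM1 and M1 turned from -0.04 to 0.11 with library totals and 0.05 with the GC trend removed, and Procr from -0.01 to 0.13 and 0.02. Between RM0 and M0, Plaur turned from 0.01 to -0.04 and -0.01 and F3 from 0.01 to -0.03 with library totals, and Plat between RM1 and M1 from 0.07 to -0.05 with the GC trend removed. Among log2 folds of tested pathway genes that did not pass, those of the M1 term turned with library totals to -0.04 for Tfpi, -0.17 for Serpind1, -0.30 for F2rl2 (-0.00 with DESeq2 and without M2 and RM2), -0.09 for Itgb1 and -0.30 for Tgfb1, which then passed (adjusted p = 0.0409), and without the irradiation term to 0.05 for Itgb3. The M2 term of Itgb1 turned to 0.00 with library totals. Those of the irradiation term turned without M1 and RM1 to -0.01 for Vwf, -0.05 for Mrc2, -0.03 for Itgb1 and 0.04 for Tgfb1, without M2 and RM2 to -0.24 for Serpinc1, -0.04 for Plgrkt, -0.02 for Mrc2, -0.08 for Cd47, 0.03 for Klf2 and 0.03 for Egr1, and for Cd47 to -0.03 without M0 and RM0 and -0.10 without the polarization term. At a 4-fold threshold 9 genes were called between RM0 and M0, 84 between RM1 and M1, 12 between RM2 and M2, 653 between M1 and M0, 10 between M2 and M0, 340 between RM1 and RM0 and 34 between RM2 and RM0. Of the 9 genes, 0, 2, 0, 1, 0, 1 and 0 were called there. With at least 50 counts, 55 genes were called between RM0 and M0, 304 between RM1 and M1, 67 between RM2 and M2, 38 between M2 and M0 and 104 between RM2 and RM0. Without a filter these became 434, 1229, 510, 427 and 598, and Plat was called between RM2 and RM0, as 1 of the 9 genes, and between RM2 and M2. The M2 term of the additive test passed 22 genes, but 41 with DESeq2, 3 with library totals, 45 with at least 1 count, 12 with at least 50 counts, 1327 without M1 and RM1, and 0 (edgeR, 621 at an unadjusted p under 0.05) without the irradiation term. The irradiation term passed 55, but 115 with DESeq2, 3 with library totals, 134 with at least 1 count, 32 with at least 50 counts, 129 without M0 and RM0, 523 without M1 and RM1, and 0 (edgeR, 138 unadjusted) without the polarization term. The causes were not tested. Library totals alone shifted all genes by -0.44 between M1 and M0, -0.25 between RM1 and RM0 and 0.14 between RM1 and M1 on the log2 scale. The split of higher and lower calls moved from 1104 and 1569 to 601 and 2984, from 722 and 922 to 498 and 1493, and from 353 and 258 to 482 and 202 there. Between RM2 and M2 it moved from 122 and 110 to 98 and 149, and for the M1 term from 2692 and 2817 to 1091 and 4750. Plau and F10 then passed 2-fold between M1 and M0, at -1.03 and -1.29, which made 6 of the 9 genes called there. With a prior count of 0.25 F10 passed as well, at -1.13. With the GC trend removed, Serpinb2 was at 0.97 between RM2 and M2 and F3 at 0.98 between RM1 and M1, below 2-fold. Of the values for single genes over all alternatives, 881 kept their side of the threshold or moved by less than their counting interval, 29 moved by more (4 of them changes in the order per kilobase), 32 gained a call and 7 lost one in the same direction, and 21 of the additive test changed sign as above.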
